A study of Homo sapiens with 8 samples.

Results

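The interferon-stimulated genes are genes that cells switch on after they sense interferon or foreign nucleic acid, and 49 genes of this response were chosen by name, the interferon gene IFNB1 among them. Of these, 48 had a row in the deposited table of 26830 genes, and 44 of the 48 reached 1 TPM (a share of the transcripts of a library, corrected for gene length) in at least 2 libraries, as did 14302 genes in all. IRF7 was not analysed here, and IFNB1, MX1, GBP1 and IFI44L fell under that minimum. They were followed through 8 libraries of polyadenylated RNA from NOMO-1 and MOLM-13, established human lines of acute myeloid leukaemia with a fusion of the MLL gene, in a study of cells with the RNA demethylase ALKBH5 lowered by a hairpin RNA. The 4 groups were MOLM-13 shALKBH5 (replicates 1 and 3), MOLM-13 shNS (replicates 1 and 3), NOMO-1 shALKBH5 (replicates 2 and 3) and NOMO-1 shNS (replicates 1 and 3). All cells received a lentivirus and were selected with puromycin. The shALKBH5 cells carried a single hairpin against ALKBH5, numbered 1 in the labels, and the shNS cells the non-targeting one. The labels give puromycin for 4 days in the series text and for 1 week in the sample protocols, which also mention FTO virus and drugs that no sample label names. Each line is a single line and each knockdown a single hairpin, and the labels do not say whether the 2 libraries of a group are separate cultures, so the p-values reflect how far the libraries of a group lie apart, possibly for technical reasons only.

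Type I interferons bind the receptor pair IFNAR1 and IFNAR2, and the kinases JAK1 and TYK2 then activate transcription factors, among them STAT2. A complex that holds STAT2 and IRF9 binds the interferon-stimulated response element (ISRE) in the promoters of the induced genes. Their products sense RNA and DNA, block viral entry, translation and replication, and feed back on the pathway, and myeloid cells are known for a strong response.

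The ISRE core, spelled as GAAA, any 2 bases and again GAAA, was searched on both strands in RefSeq promoters (build GRCh38.p14, 250 bases before to 50 bases after the start of a gene), which were given for 39 of the 48 genes. It occurred in 25 of the 39 promoters (64.1%), against 3.57% of 35116 RefSeq promoters and 2.99% of the 15313 promoters of genes that passed the minimum. Of these 25 promoters 15 held at least 2 matches. The 5 promoters below are those of the 4 genes with a match that were highest above the controls in MOLM-13 shALKBH5 replicate 1, and of OAS1, which holds none. Capitals mark each match of this core or of its reverse complement, and all 5 are read on the plus strand, at chr10:89392373-89392672, chr10:89327747-89328046, chr12:112938224-112938523, chr14:94110486-94110785 and chr12:112906712-112907011.
IFIT1: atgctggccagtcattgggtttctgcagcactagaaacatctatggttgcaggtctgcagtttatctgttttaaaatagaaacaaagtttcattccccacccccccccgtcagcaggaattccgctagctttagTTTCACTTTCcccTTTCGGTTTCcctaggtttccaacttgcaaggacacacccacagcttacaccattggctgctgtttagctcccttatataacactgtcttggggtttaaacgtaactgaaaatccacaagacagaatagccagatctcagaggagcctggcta
IFIT3: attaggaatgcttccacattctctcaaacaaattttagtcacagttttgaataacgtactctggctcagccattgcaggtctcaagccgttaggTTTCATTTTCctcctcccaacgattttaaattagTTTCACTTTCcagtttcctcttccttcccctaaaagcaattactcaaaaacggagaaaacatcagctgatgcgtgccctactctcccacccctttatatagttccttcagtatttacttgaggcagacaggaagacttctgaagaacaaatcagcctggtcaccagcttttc
OAS3: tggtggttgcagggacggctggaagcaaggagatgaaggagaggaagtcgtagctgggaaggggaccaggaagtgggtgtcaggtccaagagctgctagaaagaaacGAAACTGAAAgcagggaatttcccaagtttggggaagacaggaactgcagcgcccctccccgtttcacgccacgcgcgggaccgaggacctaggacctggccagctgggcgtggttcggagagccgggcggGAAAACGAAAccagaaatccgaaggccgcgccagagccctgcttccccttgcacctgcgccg
IFI27: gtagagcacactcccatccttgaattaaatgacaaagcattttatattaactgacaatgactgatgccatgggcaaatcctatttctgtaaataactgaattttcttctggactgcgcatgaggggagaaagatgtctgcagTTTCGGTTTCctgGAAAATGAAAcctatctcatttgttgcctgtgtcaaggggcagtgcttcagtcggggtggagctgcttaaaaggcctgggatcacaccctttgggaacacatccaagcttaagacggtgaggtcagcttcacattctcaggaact
OAS1: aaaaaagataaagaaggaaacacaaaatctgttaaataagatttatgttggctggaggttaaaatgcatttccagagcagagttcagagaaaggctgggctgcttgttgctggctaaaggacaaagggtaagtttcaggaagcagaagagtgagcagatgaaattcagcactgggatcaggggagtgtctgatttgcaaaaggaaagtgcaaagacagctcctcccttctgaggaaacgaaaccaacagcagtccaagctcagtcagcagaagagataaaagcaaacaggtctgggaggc
In IFIT1 the first bases of the matches lay at -116 and -103 from the start, in IFIT3 at -156 and -122, in OAS3 at -143 and -12 and in IFI27 at -108 and -95. The 44 matches of the 25 promoters had a median first base of -81 (range -164 to 11), and 38 of them lay within 150 bases before the start. The gamma-activated site, the STAT dimer motif spelled TTCNNNGAA, occurred in 11 of 39 promoters (28.2%) against 7.66% of all promoters, and overlapped an ISRE match in IFITM1, BST2, IFI27 and EPSTI1. A core with a 1-base gap, GAAANGAAA, was added to the search after the promoters had been seen. It occurred in 12 of 39 promoters (30.8%, against 3.12% of all), among them 5 of the 14 without an ISRE match (DDX58, OAS1, RSAD2, IFI35 and XAF1). A match describes the letters only, and a promoter without one lacks these letters in this window.

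**Figure D1:**
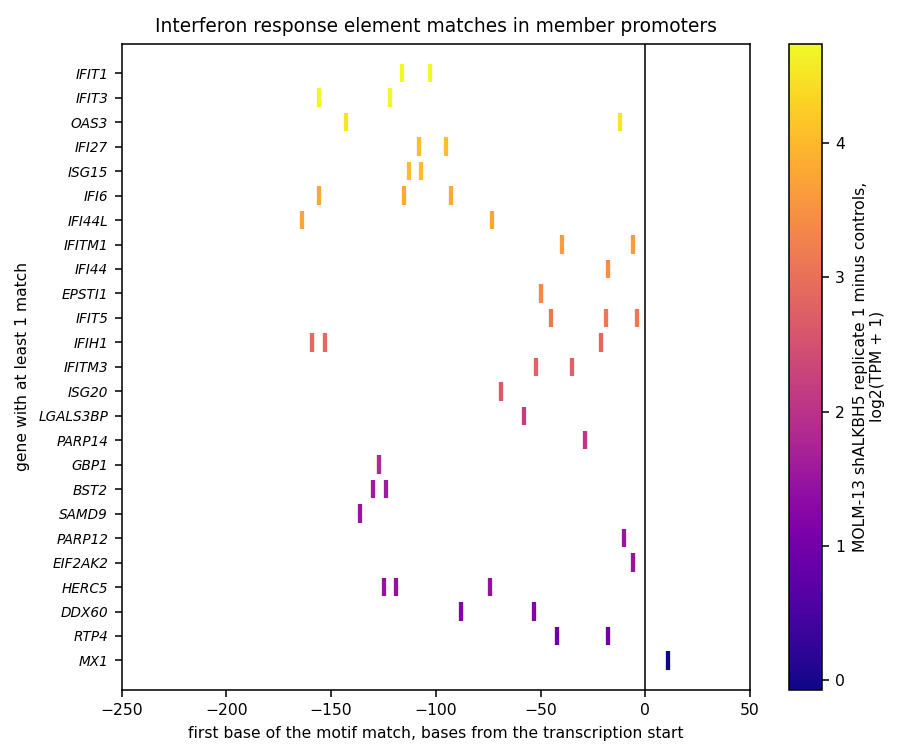
First base of each ISRE core match (x axis, bases from the transcription start) in the 25 promoters that hold 1 (y axis, 1 gene per line). Colour gives the difference of MOLM-13 shALKBH5 replicate 1 from the controls in log2(TPM + 1), and 38 of 44 matches lie within 150 bases before the start.

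The MOLM-13 shALKBH5 libraries stood apart from each other. For genes averaging 10 TPM or more, the difference between their log2(TPM + 1) values had an SD of 0.598, against 0.119 to 0.177 between the libraries of the other 3 groups. RN7SK, a structural RNA without a poly(A) tail, stood at 1284 and 2747 TPM in replicates 1 and 3 of MOLM-13 shALKBH5 and at 74.3 and 61.0 TPM in MOLM-13 shNS. In NOMO-1 it was at 123 and 68.2 TPM in shALKBH5 and at 57.1 and 41.7 TPM in shNS. RNA5-8S5, a ribosomal RNA gene, was listed at 1621 and 4046 TPM in MOLM-13 shALKBH5 and at 0 in MOLM-13 shNS and in every NOMO-1 library. The erythroid globin gene HBB was listed at 14.0 TPM in MOLM-13 shALKBH5 replicate 3 and at 0 in the other 7 libraries, and HBA1 was at 0 in all 8. Summed over 8 markers of myeloid leukaemia lines, all in the table, the level was 20290 and 12910 TPM in MOLM-13 shALKBH5. In MOLM-13 shNS it was 9954 and 9338 TPM, and most of each sum was LYZ. The 8 did not move together. LYZ, CD33, SPI1, CEBPA and CSF1R lay above both controls in both knockdown libraries (21.3% of all genes tested). PTPRC and ITGAM lay below in both (46.2% of all genes tested), and ANPEP overlapped. Of 5 markers of plasmacytoid dendritic cells, a cell type known for interferon, 4 were in the table, with summed levels of 36.9 and 21.7 TPM in MOLM-13 shALKBH5 and 58.3 and 62.7 TPM in MOLM-13 shNS, nearly all of it IL3RA. CLEC4C, which defines these cells, was at or under 0.55 TPM in every library. The part of these RNAs in the results below was not tested. ALKBH5 itself stood at 9.45 and 7.35 TPM in MOLM-13 shALKBH5 against 45.7 and 45.8 TPM in MOLM-13 shNS, and at 15.1 and 14.2 TPM in NOMO-1 shALKBH5 against 70.4 and 71.8 TPM in NOMO-1 shNS, so it was low in every library labelled as knockdown.

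The first comparison set each MOLM-13 shALKBH5 library by itself against both MOLM-13 shNS libraries. In replicate 1 nearly the whole gene set was high: 39 of the 44 genes stood at least 1 log2(TPM + 1) unit above each control and 0 stood as far below, against 5.13% of all genes tested above and 7.84% below. At 2 units 23 of 44 genes were above, against 1.2% of all genes. In replicate 3, which carries the same hairpin, 0 genes stood 1 unit above each control and 11 stood 1 unit below, against 2.57% and 19.0% of all genes. Replicate 1 had a median difference from the control mean of 2.34, and replicate 3 one of -0.49, beside -0.06 and -0.33 over all genes tested. Replicate 1 was the highest of the 4 MOLM-13 libraries for 43 of 44 genes, and replicate 3 the lowest for 34. By any margin, replicate 1 lay above both controls for 43 of 44 genes, against 39.7% of all genes tested. Replicate 3 lay below both for 34 of 44, against 64.9% of all genes tested. With 1 library on one side these are descriptions with no test. The same shares of all genes tested apply to the counts and orders by role given below. In bulk RNA a change in the number of responding cells and a change in RNA per cell cannot be told apart.

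**Figure D2:**
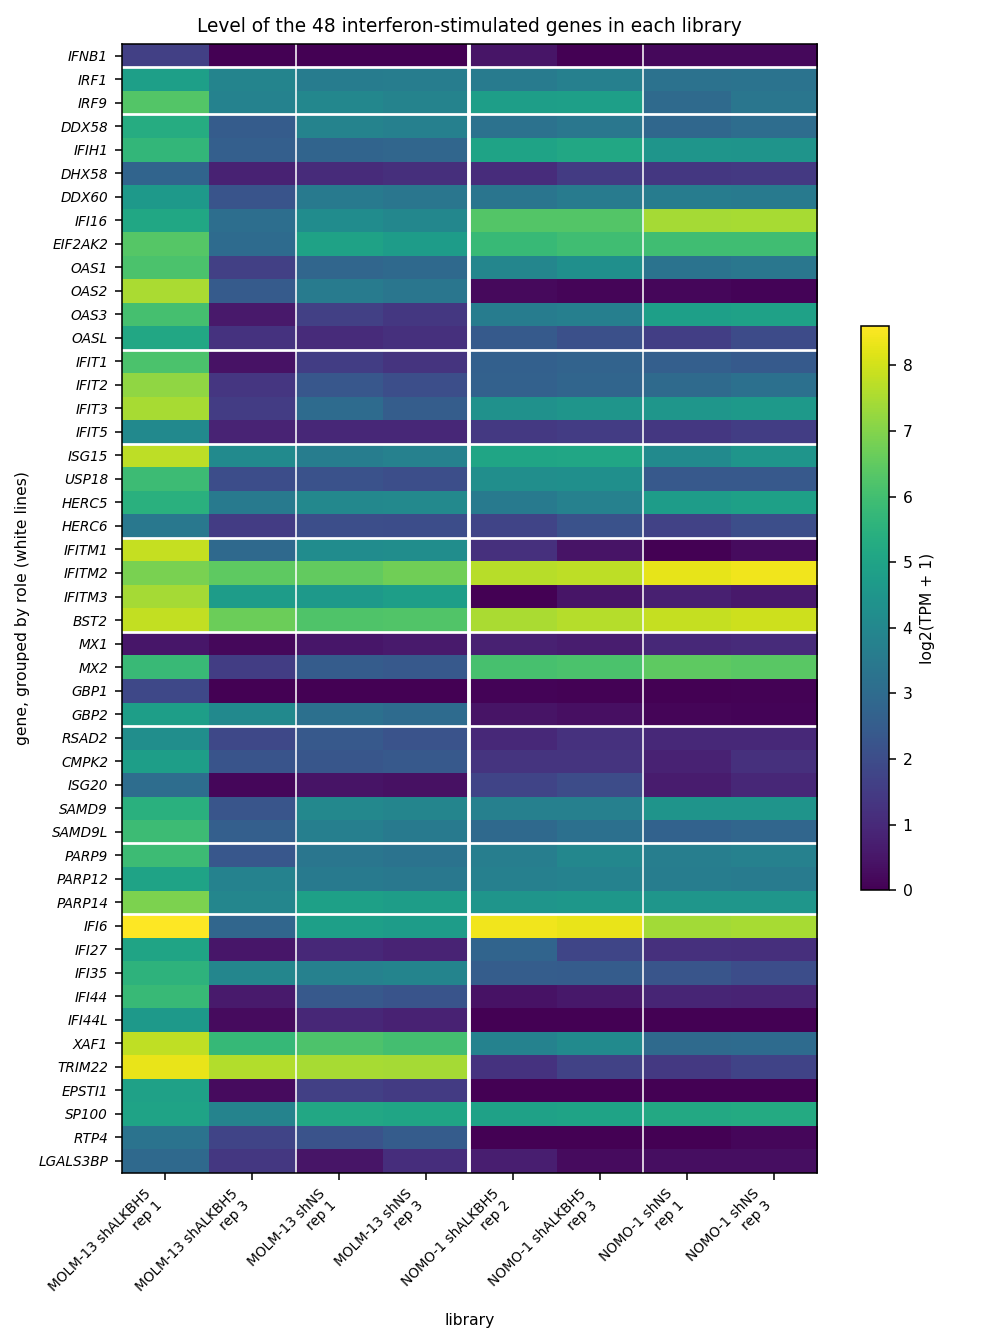
Level of each of the 48 genes (rows, grouped by role) in each of the 8 libraries (columns), as log2(TPM + 1) on the colour scale. MOLM-13 shALKBH5 replicate 1, the leftmost column, is the brightest of the 4 MOLM-13 libraries in nearly every row, while the shNS libraries of a line resemble each other.

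The ligand IFNB1, interferon beta, was listed at 2.06 and 0 TPM in replicates 1 and 3 of MOLM-13 shALKBH5 and at 0 in both MOLM-13 shNS libraries. In NOMO-1 it was at 0.4 and 0 TPM in shALKBH5 and at 0.14 and 0.14 TPM in shNS. Its highest value was thus in the library in which the induced genes were high. Of 20 other interferon genes (alpha, lambda, epsilon, gamma and others) 0 reached 1 TPM in any library and 13 were listed at 0 throughout. The highest of them was IFNA14, at 0.6 TPM in MOLM-13 shALKBH5 replicate 1.

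Both transcription factor genes were high in replicate 1. IRF9, the DNA-binding partner of STAT2, stood at 78.1 and 13.1 TPM in replicates 1 and 3 of MOLM-13 shALKBH5 and at 14.6 and 13.3 TPM in MOLM-13 shNS. IRF1, which activates antiviral and gamma-response genes, stood at 28.0 and 13.7 TPM in MOLM-13 shALKBH5 and at 11.1 and 11.5 TPM in MOLM-13 shNS. For IRF1 both knockdown libraries lay above both controls, and for IRF9 the groups overlapped.

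The sensors of RNA and DNA had a median difference of 2.26 log2(TPM + 1) units from the controls in replicate 1 and -0.99 in replicate 3, and 9 of 10 stood 1 unit above each control in replicate 1. OAS2, which makes the 2-5A messenger that activates RNase L, stood at 181 and 4.53 TPM in MOLM-13 shALKBH5 and at 10.8 and 9.48 TPM in MOLM-13 shNS. EIF2AK2, the kinase PKR that stops translation on double-stranded RNA, stood at 79.6 and 7.09 TPM in MOLM-13 shALKBH5 and at 29.8 and 26.1 TPM in MOLM-13 shNS. IFI16, a DNA sensor and the only gene of this role under 1 unit above a control in replicate 1, stood at 34.0 and 7.69 TPM in MOLM-13 shALKBH5 and at 17.1 and 14.9 TPM in MOLM-13 shNS. For these 3 genes the controls lay between the knockdown libraries. The other OAS genes behaved in the same manner in replicate 1: OAS3 was 34.6 times, OASL 29.7 times and OAS1 11.1 times the mean of the controls. Among the RNA helicases IFIH1, the sensor MDA5, stood at 8.38 times the control mean there, DHX58 at 4.94 times, DDX58, the sensor RIG-I, at 3.03 times and DDX60 at 2.41 times. In replicate 3 DDX58, DDX60, OAS1 and EIF2AK2 were at least 1 unit below each control, EIF2AK2 at 3.94 times lower than the control mean. Of all genes tested, 19.0% stood as far below in replicate 3, where their median difference was -0.33, and 5.13% stood 1 unit above in replicate 1.

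The IFIT family, whose proteins bind foreign RNA and hold back translation, had the highest median difference of the 9 roles in replicate 1, at 4.73 units. IFIT3 stood at 178 and 1.89 TPM in MOLM-13 shALKBH5 and at 6.98 and 4.85 TPM in MOLM-13 shNS. IFIT2 stood at 143 and 1.55 TPM in MOLM-13 shALKBH5 and at 4 and 3.2 TPM in MOLM-13 shNS. IFIT1 stood at 70.7 and 0.35 TPM in MOLM-13 shALKBH5 and at 1.96 and 1.43 TPM in MOLM-13 shNS. Replicate 1 was thus 41.7 times the control mean for IFIT1, 39.8 times for IFIT2 and 30.1 times for IFIT3, while replicate 3 was the lowest of the 4 libraries for all 3. IFIT5 was at 16.7 times the control mean in replicate 1. The 4 genes are neighbours on chromosome 10 (89283694 to 89421001, GRCh38, GENCODE release 29), and the printed promoters of IFIT1 and IFIT3 each hold 2 ISRE cores.

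In the ISG15 system all 4 genes were 1 unit above each control in replicate 1. ISG15, the ubiquitin-like modifier, stood at 215 and 16.2 TPM in MOLM-13 shALKBH5 and at 11.6 and 12.8 TPM in MOLM-13 shNS. USP18, which removes ISG15 and restrains the receptor, stood at 58.8 and 3.12 TPM in MOLM-13 shALKBH5 and at 3.5 and 3.22 TPM in MOLM-13 shNS. HERC5, the ligase that attaches ISG15, stood at 43.0 and 10.7 TPM in MOLM-13 shALKBH5 and at 15.1 and 15.3 TPM in MOLM-13 shNS. ISG15 lay above both controls in both knockdown libraries, by 17.6 times the control mean in replicate 1 and 1.33 times in replicate 3. For USP18 and HERC5 replicate 3 was below both controls.

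Among the membrane proteins that hinder virus entry or release, IFITM1, IFITM3 and BST2 were 1 unit above each control in replicate 1 and IFITM2 was not. IFITM1 stood at 227 and 6.59 TPM in MOLM-13 shALKBH5 and at 17.0 and 17.7 TPM in MOLM-13 shNS. IFITM3 stood at 174 and 26.0 TPM in MOLM-13 shALKBH5 and at 23.3 and 27.0 TPM in MOLM-13 shNS. IFITM2 stood at 117 and 87.5 TPM in MOLM-13 shALKBH5 and at 92.4 and 105 TPM in MOLM-13 shNS. The 3 IFITM genes lie side by side on chromosome 11 (307631 to 327537), are close copies, and IFITM1 and IFITM2 overlap in the annotation, so reads may have been split between them and the values of each are uncertain. BST2, the tetherin that holds budding virus on the cell, stood at 221.5 and 101 TPM in MOLM-13 shALKBH5 and at 73.2 and 75.2 TPM in MOLM-13 shNS, above both controls in both libraries.

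Of the interferon-induced GTPases, MX2 stood at 56.1 and 1.98 TPM in MOLM-13 shALKBH5 and at 4.65 and 4.33 TPM in MOLM-13 shNS. MX1, a classical marker of interferon exposure, stood at only 0.42 and 0.13 TPM in MOLM-13 shALKBH5 and at 0.44 and 0.55 TPM in MOLM-13 shNS. MX1 stayed at or under 1.07 TPM in all 8 libraries, including the library in which MX2, its neighbour on chromosome 21, was 12.5 times the control mean. GBP1 was listed at 2.61 and 0 TPM in MOLM-13 shALKBH5 and at 0 in both MOLM-13 shNS libraries. GBP2 stood at 27.2 and 15.9 TPM in MOLM-13 shALKBH5 and at 8.04 and 7.02 TPM in MOLM-13 shNS, with no overlap between the groups.

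The nucleotide and nuclease effectors were all 1 unit above each control in replicate 1. SAMD9L, which restrains translation and cell growth, stood at 58.0 and 5.13 TPM in MOLM-13 shALKBH5 and at 12.1 and 10.3 TPM in MOLM-13 shNS. Its neighbour and relative SAMD9 stood at 43.0 and 3.86 TPM in MOLM-13 shALKBH5 and at 15.2 and 14.0 TPM in MOLM-13 shNS. CMPK2, a mitochondrial nucleotide kinase, stood at 27.2 and 3.75 TPM in MOLM-13 shALKBH5 and at 3.98 and 4.24 TPM in MOLM-13 shNS. Replicate 3 was the lowest of the 4 libraries for all 3, and it lay below both controls for 64.9% of all genes tested. RSAD2, viperin, which makes a chain-terminating nucleotide, was at 4.62 times the control mean in replicate 1, and the exonuclease gene ISG20 at 21.6 times. CMPK2 and RSAD2 overlap on opposite strands of chromosome 2, and since the strand setting of the authors' counting is not given in the sources used here, their reads cannot be told apart with certainty.

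The PARP genes, which encode ADP-ribosyltransferases, had 3 of 3 members 1 unit above each control in replicate 1. PARP14 stood at 117.5 and 14.3 TPM in MOLM-13 shALKBH5 and at 28.7 and 26.4 TPM in MOLM-13 shNS. PARP9 stood at 58.4 and 4.02 TPM in MOLM-13 shALKBH5 and at 9.33 and 8.59 TPM in MOLM-13 shNS. PARP12 stood at 30.8 and 12.9 TPM in MOLM-13 shALKBH5 and at 10.6 and 9.97 TPM in MOLM-13 shNS. PARP12 was above both controls in both libraries, and replicate 3 was below both controls for PARP9 and PARP14.

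The remaining 10 tested genes differed among themselves, with 7 of 10 at 1 unit above each control in replicate 1. IFI6, a mitochondrial and endoplasmic reticulum protein, stood at 386 and 6.12 TPM in MOLM-13 shALKBH5 and at 27.9 and 25.8 TPM in MOLM-13 shNS. TRIM22, a ubiquitin ligase, stood at 314 and 193 TPM in MOLM-13 shALKBH5 and at 177 and 172 TPM in MOLM-13 shNS. XAF1, a pro-apoptotic partner of XIAP, stood at 218 and 52.7 TPM in MOLM-13 shALKBH5 and at 72.4 and 64.0 TPM in MOLM-13 shNS. IFI6 spanned the widest range of the 3, and TRIM22 was the most abundant of the 48 genes in the MOLM-13 controls. IFI27 was at 34.3 times the control mean in replicate 1, EPSTI1 at 14.9 times, IFI44 at 13.7 times, LGALS3BP at 8.53 times and IFI35 at 3.45 times. SP100, a nuclear body protein, was the only 1 of the 44 genes that replicate 1 did not lead: it stood at 30.8 and 13.4 TPM in MOLM-13 shALKBH5 and at 34.4 and 32.2 TPM in MOLM-13 shNS. RTP4, at 2.11 times, and TRIM22, at 1.80 times the control mean, also stayed under 1 unit.

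**Figure D3:**
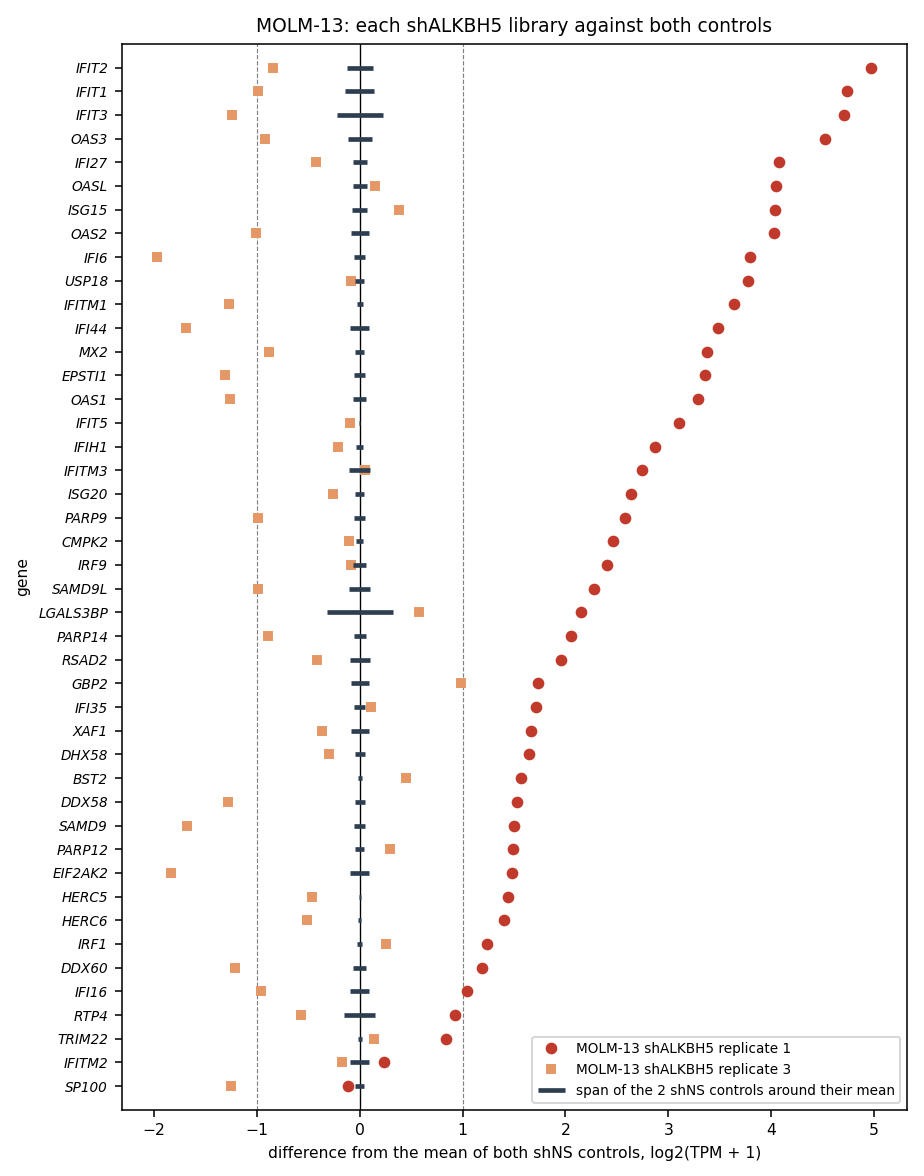
Difference of each MOLM-13 shALKBH5 library from the mean of both shNS controls in log2(TPM + 1) (x axis) for each of the 44 genes (y axis); circles are replicate 1, squares replicate 3, and bars span the 2 controls. Circles reach 4.98 for IFIT2, squares lie between -1.97 and 0.99, and dashed lines mark 1 unit.

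The sum of all 48 genes was 3761 and 672 TPM in MOLM-13 shALKBH5, against 810 and 794 TPM in MOLM-13 shNS, and 1263 and 1304 TPM in NOMO-1 shALKBH5, against 1331 and 1410 TPM in NOMO-1 shNS. Between the libraries of MOLM-13 shALKBH5, 40 of 44 genes differed by at least 1 unit (7.8% of all genes tested did), at most by 5.95 units for IFIT3. Between the libraries of each of the other 3 groups 0 of 44 did. Replicate 1 exceeded each of the other 3 MOLM-13 libraries by at least 1 unit for 352 of the 14302 genes (2.46%), 37 of them in the set, and by 2 units for 100 genes (0.699%), 23 of them in the set. At 3 units it was 34 genes (0.238%), 16 of them in the set. The genes that passed the minimum and had at least 5 TPM in replicate 1 were ranked by this excess. Of the first 10, IFIT2, IFIT1, IFIT3 and OAS3 were in the set. The other 6 were the chemokine genes CCL4L2 and CCL4, near-identical copies whose values are uncertain, TNFAIP6, SLAMF7, FPR1 and SIGLEC1. Genes high in replicate 1 only can miss the minimum and were then not ranked. CXCL10 was such a gene, at 130.5 and 0.15 TPM in MOLM-13 shALKBH5 and at 0.45 and 0.36 TPM in MOLM-13 shNS.

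**Figure D4:**
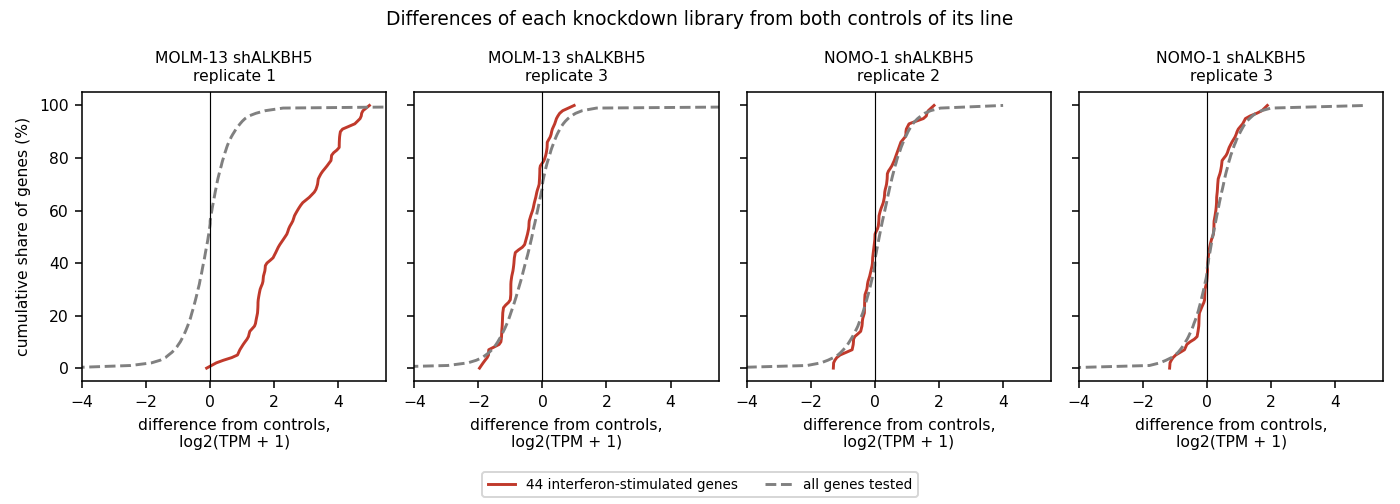
Cumulative share of genes (y axis, %) by their difference from the mean of both controls in log2(TPM + 1) (x axis), 1 panel for each knockdown library; solid line, the 44 genes, dashed line, all genes tested. The lines part in MOLM-13 shALKBH5 replicate 1, where the median is 2.34 against -0.06, and lie close together in both NOMO-1 libraries.

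Taken as a group of 2, the MOLM-13 shALKBH5 libraries gave 1 higher gene and 0 lower of the 44 (5 at an unadjusted p under 0.05, all of them higher), against 10.6% higher and 31.2% lower of all genes tested. The gene was GBP2, a GTPase that acts on vacuoles holding pathogens, with a log2 fold change of 1.36 on the log2(TPM + 1) scale, which understates low genes (SE 0.24, limma adjusted p = 0.00597, Benjamini-Hochberg). BST2 was at 1.01 (SE 0.33, limma adjusted p = 0.0501), LGALS3BP at 1.36, PARP12 at 0.89 and IRF1 at 0.75. The median over the 44 genes was 0.96, beside -0.18 over all genes tested. Both knockdown libraries lay above both controls for 9 of 44 genes (21.3% of all genes) and below for 1, SP100 (46.2% of all genes). The GBP2 call ended when MOLM-13 was fitted alone (limma adjusted p = 0.0767), where 2.68% of all genes were higher and 9.09% lower. Which library was used decided the other calls: without replicate 1, 4 genes were higher and 23 lower (14.0% and 52.0% of all genes), and without replicate 3, 42 were higher and 0 lower (23.4% and 34.7%), each time with the lone library assumed to vary like the other groups.

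Scaling by median-of-ratios, which sets a typical gene level across libraries, put the median of all genes in this comparison at 0.03 in place of -0.18 and gave 8 higher and 0 lower genes of 44, against 24.1% and 26.4% of all genes. The 8 were BST2 (1.30, limma adjusted p = 0.00408), GBP2 (1.65), IFI35 (1.20), IFITM2 (0.33), IRF1 (1.03), LGALS3BP (1.61), PARP12 (1.18) and TRIM22 (0.79). For 7 of them both knockdown libraries lay above both controls in the deposited values, and IFITM2 was the exception.

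For single NOMO-1 knockdown libraries, the shares of the gene set 1 unit above or below both controls were near those of all genes. In each knockdown library few genes stood 1 unit from both controls: 3 of 44 higher and 3 lower in replicate 2 (9.47% and 6.1% of all genes tested), and 4 higher and 2 lower in replicate 3 (9.36% and 4.38%). USP18 stood at 18.1 and 18.5 TPM in replicates 2 and 3 of NOMO-1 shALKBH5 and at 4.3 TPM in both NOMO-1 shNS libraries. IRF9 stood at 27.2 and 28.0 TPM in NOMO-1 shALKBH5 and at 6.77 and 9.47 TPM in NOMO-1 shNS. IFI6 stood at 338 and 319 TPM in NOMO-1 shALKBH5 and at 169 and 175 TPM in NOMO-1 shNS. These 3 lay above both controls in both knockdown libraries, as did ISG15, at 32.1 and 32.7 TPM in NOMO-1 shALKBH5 against 16.4 and 21.3 TPM in NOMO-1 shNS. OAS3 stood at 11.2 and 12.2 TPM in NOMO-1 shALKBH5 and at 28.2 and 29.2 TPM in NOMO-1 shNS. IFI16 stood at 77.6 and 77.3 TPM in NOMO-1 shALKBH5 and at 172 and 175 TPM in NOMO-1 shNS. HERC5 stood at 10.4 and 12.7 TPM in NOMO-1 shALKBH5 and at 25.7 and 28.3 TPM in NOMO-1 shNS. These 3 lay below both controls in both knockdown libraries, and OAS3 and HERC5 are among the genes that were high in MOLM-13 shALKBH5 replicate 1. The IFIT genes were close to their controls: IFIT3 stood at 19.2 and 21.3 TPM in NOMO-1 shALKBH5 and at 21.7 and 23.4 TPM in NOMO-1 shNS, and IFIT1 at 5.28 and 5.63 TPM in NOMO-1 shALKBH5 and at 5.11 and 4.37 TPM in NOMO-1 shNS. EPSTI1 was listed at 0 in all 4 NOMO-1 libraries, and RTP4 at 0 in both NOMO-1 shALKBH5 libraries and at 0 and 0.11 TPM in NOMO-1 shNS. MX2 stood at 67.9 and 69.9 TPM in NOMO-1 shALKBH5 and at 87.1 and 83.8 TPM in NOMO-1 shNS, and BST2 at 180 and 197 TPM in NOMO-1 shALKBH5 and at 226 and 246 TPM in NOMO-1 shNS. GBP2 stood at 0.37 and 0.29 TPM in NOMO-1 shALKBH5 and at 0.08 and 0.05 TPM in NOMO-1 shNS, far under its MOLM-13 levels. XAF1 stood at 13.0 and 16.2 TPM in NOMO-1 shALKBH5 and at 6.77 and 7.12 TPM in NOMO-1 shNS, above both controls in both libraries.

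**Figure D5:**
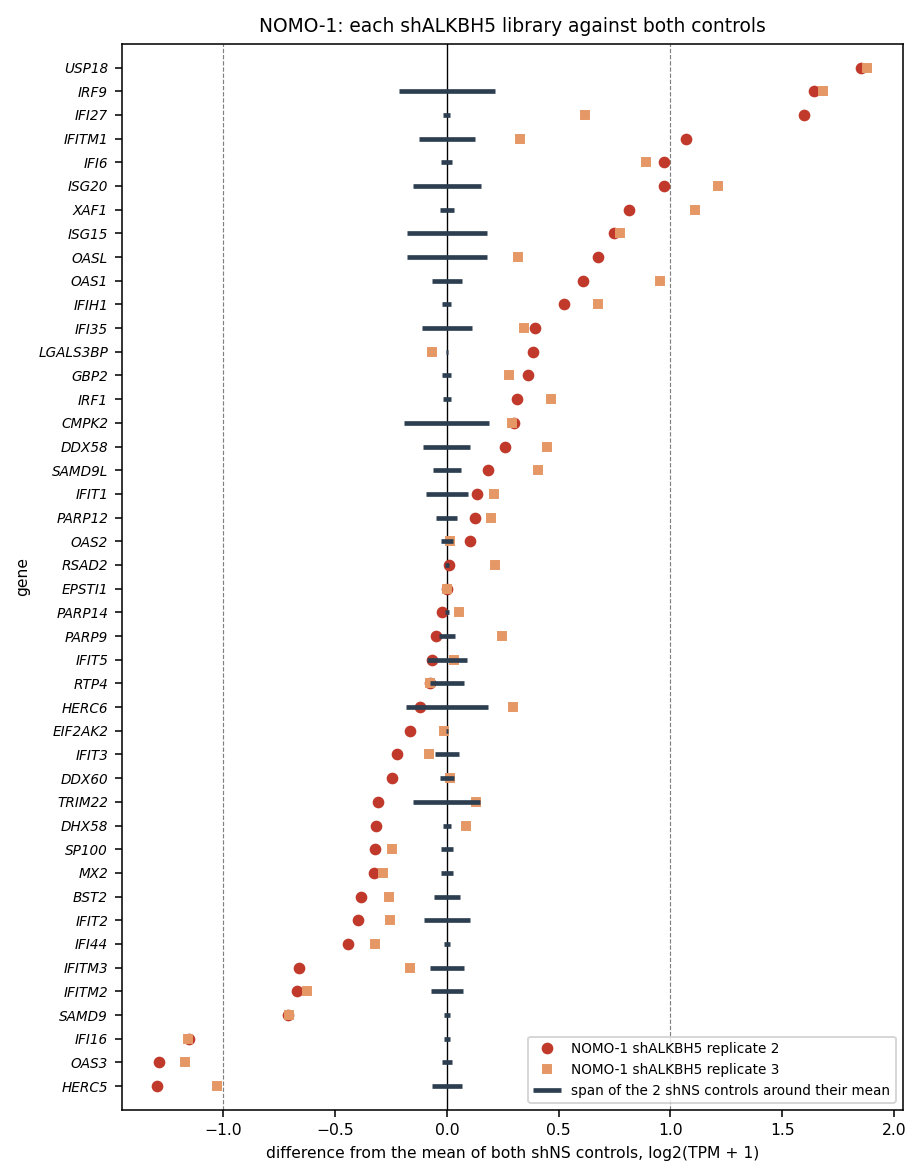
Difference of each NOMO-1 shALKBH5 library from the mean of both shNS controls in log2(TPM + 1) (x axis) for each of the 44 genes (y axis); circles are replicate 2, squares replicate 3, and bars span the 2 controls. Circles and squares lie close to each other for most genes, but not for IFI27, at 1.6 and 0.62. USP18 is highest, at 1.85 and 1.88. HERC5 is the lowest circle (-1.30, square -1.03) and OAS3 the lowest square (-1.17, circle -1.29).

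In the test over all 8 libraries 1 of 44 genes passed in NOMO-1 (1 at an unadjusted p under 0.05), with 0 higher and 1 lower, against 28.6% and 15.0% of all genes tested. It was IFITM2, at 205 and 212 TPM in NOMO-1 shALKBH5 and at 311 and 343 TPM in NOMO-1 shNS, which fell by 0.65 on the log2 scale (SE 0.15, limma adjusted p = 0.0164). The call ended when any 1 of the 4 NOMO-1 libraries was left out (limma adjusted p up to 0.104). The median over the 44 genes was 0.10, beside 0.16 over all genes tested, and with median-of-ratios scaling, which brought that of all genes to 0, HERC5 was lower as well (23.7% of all genes higher and 26.0% lower). That test pools the spread of each gene with the MOLM-13 shALKBH5 libraries. With NOMO-1 fitted alone, 10 genes were higher and 9 lower, against 41.2% and 22.6% of all genes. Higher were USP18 (1.87), IRF9 (1.66), ISG20 (1.09), XAF1 (0.96), IFI6 (0.93), OAS1 (0.78), ISG15 (0.76), IFIH1 (0.60), IRF1 (0.39) and GBP2 (0.32). Lower were OAS3 (-1.23), HERC5 (-1.16), IFI16 (-1.16), SAMD9 (-0.71), IFITM2 (-0.65), IFI44 (-0.38), BST2 (-0.32), MX2 (-0.31) and SP100 (-0.28). Groups did not overlap for 19 genes above and 13 below the controls, against 52.1% and 30.5% of all genes.

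The difference of the knockdown effects, MOLM-13 minus NOMO-1, passed for 0 of 44 genes by limma (3 at an unadjusted p under 0.05, 6 with median-of-ratios scaling, all higher, where 17.1% of all genes were higher and 18.5% lower), against 4.9% higher and 29.7% lower of all genes tested. The 3 were IFITM2 (0.68, SE 0.22, limma adjusted p = 0.0531), GBP2 (1.04, SE 0.33, limma adjusted p = 0.0546) and BST2 (1.33, SE 0.46, limma adjusted p = 0.0686). The median was 0.71 over the 44 genes and -0.42 over all genes. Without MOLM-13 shALKBH5 replicate 1 there were 4 higher and 24 lower genes (8.7% and 58.9% of all genes), and without replicate 3 there were 43 higher and 0 lower (13.8% and 41.0%).

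The control libraries alone differed between the lines in some of these genes. Of the 48 genes 33 reached 1 TPM in both NOMO-1 shNS libraries and 40 in both MOLM-13 shNS libraries. In the contrast NOMO-1 shNS minus MOLM-13 shNS, 4 of 44 genes were higher and 7 lower, against 40.6% and 19.2% of all genes tested. Higher in NOMO-1 were MX2, at 87.1 and 83.8 TPM in NOMO-1 shNS against 4.65 and 4.33 TPM in MOLM-13 shNS (3.98, limma adjusted p = 0.028), IFI16 (3.37), IFITM2 (1.72) and BST2 (1.65). Lower in NOMO-1 was TRIM22, at 1.69 and 2.31 TPM in NOMO-1 shNS against 177 and 172 TPM in MOLM-13 shNS (log2 fold change -5.88, SE 0.26, limma adjusted p = 8.44e-06). IFITM1 (-4.07), IFITM3 (-4.04), XAF1 (-3.12), GBP2 (-3.00), RTP4 (-2.27) and IFI35 (-1.68) were lower too. IFITM1 was listed at 0 and 0.19 TPM and IFITM3 at 0.67 and 0.5 TPM in NOMO-1 shNS, while IFITM2 from the same cluster stood at 311 and 343 TPM. EPSTI1 and IFI44L were listed at 0 in both NOMO-1 shNS libraries, and OAS2 was at 0.1 and 0.06 TPM there against 10.8 and 9.48 TPM in MOLM-13 shNS. The calls of IFI35, IFITM1 and MX2 ended when single libraries of the controls were left out (limma adjusted p up to 0.147), and without the spread of the MOLM-13 shALKBH5 libraries 19 genes were higher and 17 lower (51.8% and 26.6% of all genes). The control groups did not overlap for 25 genes higher in NOMO-1 and 18 lower, against 57.9% and 31.6% of all genes.

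The pathway around these genes was described through lists of its other members. In MOLM-13 shALKBH5 replicate 1, 4 of 11 receptor and signalling genes stood 1 unit above each control and 0 below (5.13% and 7.84% of all genes), among them STAT2, TYK2 and IFNGR2. STAT2 stood at 137 and 42.7 TPM in MOLM-13 shALKBH5 and at 38.2 and 34.2 TPM in MOLM-13 shNS. JAK1, the receptor kinase, was low in both libraries, at 42.2 and 26.6 TPM in MOLM-13 shALKBH5 against 69.1 and 67.7 TPM in MOLM-13 shNS (-1.01, limma adjusted p = 0.0102, and up to 0.0901 over the alternatives). In NOMO-1, 4 of 11 rose (STAT2, STAT3, JAK2 and IFNGR1) and 1 fell, against 28.6% and 15.0% of all genes. The JAK2 and IFNGR1 calls ended when any 1 NOMO-1 library was left out (limma adjusted p up to 0.0755 for JAK2 and 0.109 for IFNGR1). JAK1 fell by 0.62 (limma adjusted p = 0.0496, and up to 0.214 over the alternatives). STAT2 stood at 134 and 137 TPM in NOMO-1 shALKBH5 and at 33.6 and 33.5 TPM in NOMO-1 shNS (1.98, limma adjusted p = 0.0173, and up to 0.0863 when a NOMO-1 library was left out). STAT2 and IRF9 both lay above both controls in both NOMO-1 knockdown libraries, as did 52.1% of all genes tested. In the test over all 8 libraries IRF9 did not pass in NOMO-1 (1.66, limma adjusted p = 0.109).

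Of 19 sensors, adaptors and kinases upstream of interferon, 5 stood 1 unit above each control in MOLM-13 shALKBH5 replicate 1 (TLR8, TICAM1, MYD88, TRAF3 and IKBKE) and 0 below. Over all genes tested it was 5.13% above and 7.84% below. MYD88, the adaptor of most Toll-like receptors, stood at 157 and 43.1 TPM in MOLM-13 shALKBH5 and at 38.4 and 41.5 TPM in MOLM-13 shNS. In MOLM-13 the test called IRF5 higher (0.69) and TICAM2 (-0.85), TLR9 (-0.72) and TMEM173 (-0.34) lower, against 10.6% and 31.2% of all genes. Each of these 4 calls ended under some alternatives, with limma adjusted p up to 0.149 for IRF5, 0.0748 for TICAM2, 0.124 for TLR9 and 0.844 for TMEM173, the DNA-sensing adaptor STING. In NOMO-1 it called TMEM173 (0.77) and MAVS (0.44), the adaptor of the RNA helicases, higher and TLR9 (-0.94) and MB21D1 (-0.64), the DNA sensor cGAS, lower, against 28.6% and 15.0% of all genes. Only TMEM173 of these 4 stayed past the threshold under all 16 alternatives, and the limma adjusted p went up to 0.129 for MAVS, 0.0506 for TLR9 and 0.19 for MB21D1. Among 14 genes that restrain interferon signalling or remove nucleic acids, 1 was called higher and 3 lower in MOLM-13 (10.6% and 31.2% of all genes). In NOMO-1 it was 2 higher and 2 lower (28.6% and 15.0%). RNF125 was called in MOLM-13 only, as lower, and SKIV2L in NOMO-1 only, as higher. Both calls ended under some alternatives (limma adjusted p up to 0.0562 and 0.0866). The other calls were the subunits of RNase H2, which cuts RNA out of DNA, and they moved in the same directions in both lines. RNASEH2A fell by 1.29 in MOLM-13 (limma adjusted p = 0.000634) and by 1.14 in NOMO-1 (0.000857), and RNASEH2B fell by 1.30 in MOLM-13 and by 0.64 in NOMO-1, where its limma adjusted p of 0.0115 went up to 0.0793 over the alternatives. RNASEH2C rose by 0.86 in MOLM-13 and by 0.72 in NOMO-1. RNASEH2A stood at 27.5 and 23.9 TPM in MOLM-13 shALKBH5 against 63.1 and 65.3 TPM in MOLM-13 shNS, and at 60.0 and 69.7 TPM in NOMO-1 shALKBH5 against 141 and 146 TPM in NOMO-1 shNS. Both MOLM-13 knockdown libraries lay below both controls in it.

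Of 8 tested genes that respond more to interferon gamma, 5 stood 1 unit above each control in MOLM-13 shALKBH5 replicate 1 (5.13% of all genes). CIITA, the master activator of MHC class II genes, was high in every knockdown library, at 17.1 and 9.19 TPM in MOLM-13 shALKBH5 against 1.11 and 1.15 TPM in MOLM-13 shNS, and at 12.3 and 13.1 TPM in NOMO-1 shALKBH5 against 6.37 and 6.76 TPM in NOMO-1 shNS. It rose by 2.67 in MOLM-13 (SE 0.25, limma adjusted p = 0.000783) and by 0.86 in NOMO-1 (SE 0.25, limma adjusted p = 0.0348, and up to 0.145 over the alternatives). NF-kB and inflammatory genes were high in the same library as the interferon-stimulated genes. In MOLM-13 shALKBH5 replicate 1, 16 of 18 stood 1 unit above each control and 0 below, with a median of 2.50 units. Over all genes tested it was 5.13% and 7.84%. In replicate 3 it was 0 of 18 above and 4 below, against 2.57% and 19.0% of all genes tested. CXCL8, the neutrophil chemokine, stood at 405 and 1.71 TPM in MOLM-13 shALKBH5 and at 59.0 and 44.2 TPM in MOLM-13 shNS. NFKBIA, the inhibitor induced by NF-kB itself, stood at 264 and 19.7 TPM in MOLM-13 shALKBH5 and at 37.8 and 34.2 TPM in MOLM-13 shNS. For both genes replicate 3 was below the controls. In the test 0 of the 18 passed in MOLM-13 by limma (1 at an unadjusted p under 0.05). Over all genes tested 10.6% were higher and 31.2% lower.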

How the data were processed

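Polyadenylated RNA of 8 libraries from 4 groups of 2 was measured by sequencing. The authors deposited 1 table of TPM values, an estimate from STAR and RSEM on GRCh38 per the submitters' processing notes; no version, annotation or strand option is given in the sources used here. The unit was read from the values, since columns sum to 1000000 within rounding. TPM is a share, so library depth cannot be read from it, and a rise of some transcripts lowers the share of all others. The count test that had been planned did not apply to such values. Genes that reached 1 TPM in 2 or more libraries were tested as log2(TPM + 1) with limma 3.58.1 in R 4.3.3 (intensity trend, all 8 libraries, 4 residual and a median of 2.29 prior degrees of freedom), with Benjamini-Hochberg adjustment over 14302 genes and a threshold of 0.05. Columns were tied to libraries by line, group and replicate number; the code E is not spelled out in the labels and was read as shALKBH5. For single libraries a difference of at least 1 log2 unit from each of both controls was used, with no test. The script was tested on simulated data. Promoters came from RefSeq and gene positions from GENCODE 29. Python 3.11.15, pandas 2.3.3 and matplotlib 3.10.9 were used for the rest.

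The members, the other gene lists and the tests were chosen with earlier results of these data known. Values in every library are given, in each role, for the 3 members with the highest mean TPM, for IFIT1, ISG15 and IFNB1 and for members past the threshold. Other list genes are named where they passed it or stood 1 unit from each control. Named as well are the 10 genes with the largest excess of MOLM-13 shALKBH5 replicate 1 among genes that passed the minimum. Alternatives were the pseudocount, the filter, the scaling, the trend, each line alone, the replicate block and each library left out. The spread without the MOLM-13 shALKBH5 libraries was added after seeing the data. Same-numbered MOLM-13 libraries deviated with a correlation of 0.0606 over genes, so the numbers were not taken as pairs. IRF7 and some genes of the other lists are not reported here.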

Additional observations from a re-analysis of the deposited data

Results flagged for a closer look

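None of the 44 interferon-stimulated genes differed between the lines in its knockdown effect by limma (3 at an unadjusted p under 0.05). In the surrounding pathway lists 10 genes did. These lists had 11, 19, 14, 8 and 18 genes tested, some of them shared between lists. Over all genes tested 4.9% were higher and 29.7% lower. Values are differences of log2(TPM + 1) effects, MOLM-13 minus NOMO-1. CCL2, a monocyte chemokine, differed by 4.65 (limma adjusted p = 0.00759), from effects of 0.98 in MOLM-13 and -3.68 in NOMO-1. RNF125, a ubiquitin ligase that acts on RIG-I, differed by -1.13 (limma adjusted p = 0.00738; effects -0.89 in MOLM-13 and 0.24 in NOMO-1). These held under all 15 alternatives. TMEM173, the adaptor STING, differed by -1.11 (limma adjusted p = 0.00391; effects -0.34 in MOLM-13 and 0.77 in NOMO-1) and missed the threshold only with median-of-ratios scaling (0.089). The other 7 missed it when single libraries other than those of MOLM-13 shALKBH5 were left out, and some of them under further alternatives. CIITA differed by 1.81, MB21D1 by 1.10 and CCL5 by 1.02, each with the higher effect in MOLM-13. STAT3 differed by -1.06, IFNGR1 by -1.04, RNASEH2B by -0.65 and MAVS by -0.61, each with the lower effect in MOLM-13. Their limma adjusted p-values lay between 0.0135 (CIITA) and 0.0479 (CCL5).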

How the results depend on the processing

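Counts of the 44 genes past the limma threshold depended on the libraries and the scaling. Directions depended on the libraries too. The median difference of the 44 genes from the MOLM-13 controls was 2.34 in shALKBH5 replicate 1 and -0.49 in replicate 3. Over all genes tested it was -0.06 and -0.33. For the MOLM-13 knockdown 1 gene passed; it was 2 of 33 with a filter of 5 TPM, 8 with median-of-ratios and 8 with quantile scaling, 0 with the line alone, and 1 to 42 with single libraries left out. Over all genes 5972 passed, 1684 with the line alone and 2665 to 9439 with libraries left out. For NOMO-1 it was 1 gene, 2 with a pseudocount of 0.1 or either scaling, 19 with the line alone, 22 without the spread of the MOLM-13 shALKBH5 libraries and 0 to 22 with libraries left out. Over all genes 6242 passed, 9740 without that spread and 3490 to 9745 with libraries left out. For the difference between the lines it was 0, 2 with a filter of 5 TPM, 6 with median-of-ratios scaling, 7 with quantile scaling and 0 to 43 with libraries left out, and over all genes 4946 and 1635 to 9661. Between the controls it was 11, 36 without that spread and 8 to 36 with libraries left out. The same numbers marked MOLM-13 libraries of both groups, and with the replicate block 3 genes passed for the MOLM-13 knockdown and 2 for the difference; NOMO-1 groups share 1 number, so no block was possible there.

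Counts for single libraries moved as well. The shares of all genes tested, in brackets, moved too. In MOLM-13 shALKBH5 replicate 1 the 39 higher genes (5.13%) were 23 at 2 units (1.2%). In replicate 3 the 11 lower genes (19.0%) were 17 with a pseudocount of 0.1 (23.4%) and 5 with either scaling (9.19% with median-of-ratios, 8.55% with quantile). They were 0 at 2 units (3.09%) and 11 to 17 with a control left out (21.2% at 17). The 0 higher (2.57%) were 1 with either scaling (6.99% and 7.14%) and 0 to 1 with a control left out (3.35% at 1). In NOMO-1 shALKBH5 replicate 2 the 3 higher (9.47%) were 7 (13.4%) and the 3 lower (6.1%) were 5 (7.57%) with a pseudocount of 0.1. Both were 0 at 2 units (0.888% and 1.1%), and the higher were 3 to 5 with a control left out (11.3% at 5). In NOMO-1 replicate 3 the 4 higher (9.36%) were 2 with either scaling (5.03% with median-of-ratios, 5.76% with quantile). At 2 units 0 were higher and 0 lower (0.797% and 0.58%). Where the cause of a change is not a smaller set of libraries, it was not tested. A count model was not run, since the values are TPM, and the depth that limits low genes such as IFNB1 is unknown.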

Other observations

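The 4 genes below lie outside the 49. They were picked from the 10 genes with the largest excess of MOLM-13 shALKBH5 replicate 1 among genes that passed the minimum. TNFAIP6, a hyaluronan-binding protein induced by TNF, was listed at 50.2 and 0 TPM in MOLM-13 shALKBH5 and at 0.06 TPM in both MOLM-13 shNS libraries. SLAMF7, a lymphoid and myeloid receptor, stood at 46.7 and 0.33 TPM in MOLM-13 shALKBH5 and at 0.64 and 0.54 TPM in MOLM-13 shNS. SIGLEC1, a macrophage receptor known as an interferon-induced gene, stood at 33.9 and 1.03 TPM in MOLM-13 shALKBH5 and at 0.71 and 0.5 TPM in MOLM-13 shNS. FPR1, the formyl peptide receptor of phagocytes, stood at 47.2 and 0.78 TPM in MOLM-13 shALKBH5 and at 0.33 and 0.51 TPM in MOLM-13 shNS. Since the 4 genes were picked for this excess, that replicate 1 was the only high library of the 4 from MOLM-13 follows from the choice. In NOMO-1 SIGLEC1 stood at 37.8 and 40.9 TPM in shALKBH5 and at 2.01 and 1.82 TPM in shNS, and SLAMF7 at 57.8 and 46.2 TPM in shALKBH5 and at 5.78 and 5.97 TPM in shNS. FPR1 stood at 17.9 and 17.1 TPM in NOMO-1 shALKBH5 and at 6.11 and 4.22 TPM in NOMO-1 shNS, and TNFAIP6 at 1.59 and 0.79 TPM in NOMO-1 shALKBH5 and at 0.33 and 0.32 TPM in NOMO-1 shNS. All 4 genes thus lay above both controls in both NOMO-1 knockdown libraries, as did 52.1% of all genes tested.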
